A study of Mus musculus with 6 samples.

Results

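The 10 genes described here encode the G1 cyclins (Ccnd1, Ccnd2, Ccnd3, Ccne1 and Ccne2), inhibitors of cyclin-dependent kinases (Cdkn1b, Cdkn2a, Cdkn2b and Cdkn2c) and the transcription factor E2f1. They were taken by symbol from 24422 genes counted in RNA of whole mouse kidneys at postnatal day 13, and all 10 were found. Cdkn1a was not among them and is given with the other genes of the pathway. The 3 Control kidneys were wild type and the 3 TfR1 knockout kidneys were Tfr1f/f;SixCre, a genotype that deletes floxed exons of Tfrc, the gene of transferrin receptor 1, with a Six2-driven Cre. The study describes its RNA controls as wild type littermates, and in another experiment it names Tfr1f/f littermates as wild type. All 6 were from the C57BL/6 strain at day 13 and on an iron sufficient diet with 220 ppm iron. Six2Cre acts in the progenitors that form the nephron, so the collecting duct, stroma, vessels and blood cells of the same kidneys are outside its lineage, and the study also described nephron cells that escaped the deletion. The comparison asked how transcripts of the G1 machinery differed between the genotypes.

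D-type cyclins bind Cdk4 or Cdk6 in early G1 and start the phosphorylation of the retinoblastoma protein, and E-type cyclins bind Cdk2 and complete it, which releases E2F factors to transcribe genes of DNA replication. The INK4 inhibitors (from Cdkn2a, Cdkn2b, Cdkn2c and Cdkn2d) bind Cdk4 and Cdk6, whereas the Cip/Kip inhibitors (from Cdkn1a, Cdkn1b and Cdkn1c) act on complexes of cyclins with their kinases. In the kidney after birth these genes are read in epithelia that still divide and in cells leaving the cycle. Protein levels, which are set largely by degradation for cyclin E and for the product of Cdkn1b, were not measured.

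Total gene counts ran from 16591156 to 22898008 per library, and 19985 genes had at least 1 read. Sums of marker genes showed a different makeup of the groups. The distal convoluted tubule sum was 10896 to 21871 normalized counts in Control and 648 to 1637 in knockout kidneys, with 2 of 2 markers past the test and lower. The thick ascending limb sum was 42671 to 87247 against 11337 to 23156 (3 of 3 lower). The collecting duct sum was 7802 to 16733 against 32047 to 61726 (3 of 4 higher), and the macrophage sum was 2122 to 3439 against 3860 to 5725 (3 of 7 higher). The proximal tubule sums overlapped (37978 to 87235 against 35058 to 51505, with 1 of 5 higher and 2 lower), as did those of stroma (45706 to 90863 against 23389 to 46641, with 1 of 4 lower), podocytes (8832 to 13242 against 12157 to 15162, with 1 of 4 higher) and endothelium (9827 to 15948 against 11057 to 13116, with 0 of 4). Sums for nephron progenitor markers were 71.0 to 158 and 120.3 to 179.7 (1 of 4 higher), those for lymphocytes were 19.1 to 45.2 and 5.12 to 25.9, and those for erythroid cells were 1618 to 5003 and 1226 to 5574, with 2 of the 4 erythroid markers, Hba-a1 and Hbb-b1, at 0 counts in every library. Control replicate 3 stood apart within its group, with the lowest tubule and collecting duct sums and the highest stroma sum. In these bulk samples, fewer cells of a type and less RNA per cell cannot be told apart, and the part of this makeup in the results below was not tested.

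Of the 10 genes, 9 could be tested (DESeq2 Wald test, Benjamini-Hochberg adjustment over 16509 genes), and 2 of them, Ccnd1 and Cdkn2c, were lower in knockout kidneys at an adjusted p under 0.05 and 0 were higher. Both were lower by more than 2-fold. Among all genes tested, 14.9% passed this rule, 7.18% lower and 7.74% higher (4.46% and 4.41% with the 2-fold limit). With edgeR and with limma-voom 1 member, Cdkn2c, was lower, against 2.8% and 2.98% of all genes, and 0 were higher, against 3.22% and 3.17%. At an unadjusted p under 0.05, DESeq2 gave 4 lower members and 1 higher, against 13.5% and 13.8% of all genes tested, and edgeR 3 lower and 1 higher, against 13% and 12.8%. The median log2 fold change of the 9 was -0.79, and that of all genes tested was 0.00715.

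**Figure D1:**
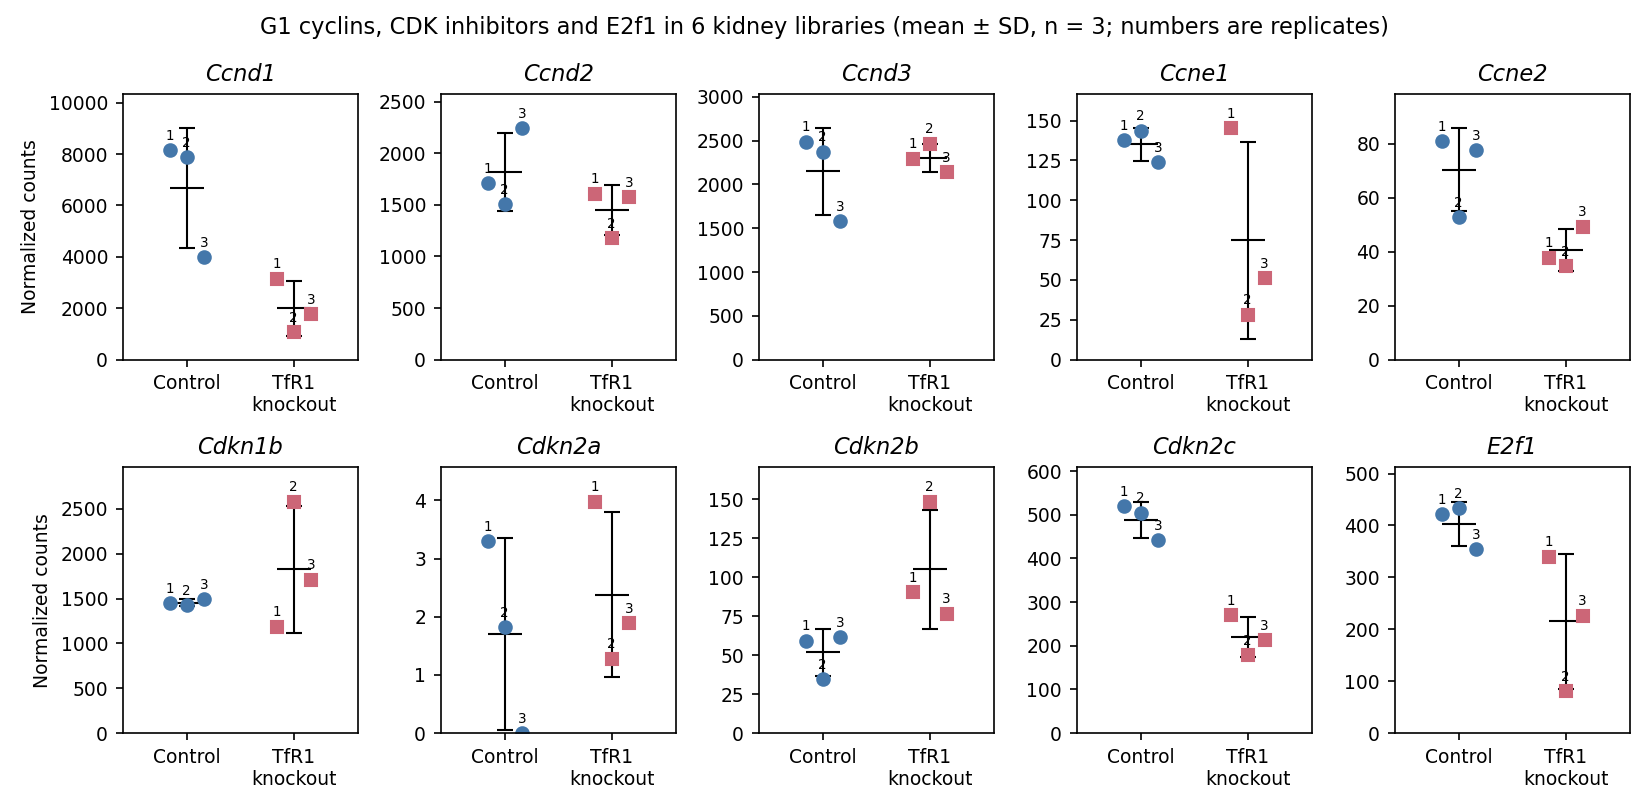
Normalized counts (vertical axes, linear, from 0) of the 10 genes in the 3 Control libraries (circles) and the 3 TfR1 knockout libraries (squares), numbered by replicate, with the mean and SD of each group (n = 3). The groups are separate for Ccnd1, Ccne2, Cdkn2b, Cdkn2c and E2f1, and TfR1 knockout replicate 2 is the lowest of the 6 libraries for Ccnd1, Ccnd2, Ccne1, Ccne2, Cdkn2c and E2f1.

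Among the D-type cyclins, only Ccnd1 passed the test. Ccnd1 encodes cyclin D1, which mitogens induce in many epithelia (mm9, chromosome 7, 152115836 to 152125774, minus strand). It had 8161, 7873 and 3981 normalized counts in Control and 3147, 1075 and 1759 in knockout kidneys, each in the order of replicates 1 to 3, as for all values below. All knockout libraries were below all Control libraries, and Control replicate 3 lay nearer to the highest knockout library than to the other two Controls. The group means were 6672 ± 2335 and 1994 ± 1056 (SD, n = 3 each), so that Ccnd1 fell 3.35-fold (log2 fold change -1.74, SE 0.42, 95% interval -2.56 to -0.93, DESeq2 adjusted p 0.000633). The call was lost with edgeR (adjusted p 0.0581) and limma-voom (adjusted p 0.0552), and over all 15 alternatives the adjusted p ranged from 4.63e-08 to 0.0581. Without Control replicate 3 the log2 fold change was -2.01.

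Ccnd2 encodes cyclin D2 (chromosome 6, 127075797 to 127101066, minus strand). It had 1708, 1507 and 2243 normalized counts in Control and 1609, 1174 and 1574 in knockout kidneys. The groups overlapped and the test was not passed (log2 fold change -0.32, SE 0.23, 95% interval -0.78 to 0.13, DESeq2 adjusted p 0.379).

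Ccnd3 encodes cyclin D3 (chromosome 17, 47642000 to 47736632, plus strand). Its normalized counts were 2487, 2376 and 1581 in Control and 2294, 2463 and 2139 in knockout kidneys. Here Control replicate 3 was the lowest of the 6 libraries, and the knockout libraries lay within the Control range. The log2 fold change was 0.10 (SE 0.22, DESeq2 adjusted p 0.824), with a 95% interval of the ratio from 0.790 to 1.45, and its sign turned when libraries were scaled by total counts or Control replicate 3 was left out.

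Counts of these genes may gain or lose reads where a gene on the opposite strand overlaps, since the library kit does not mark strand. In the annotation, Oraov1 overlapped Ccnd1 by 818 bases, the noncoding gene 9330179D12Rik overlapped Ccnd2 by 1660, Bysl overlapped Ccnd3 by 353 and Ints8 overlapped Ccne2 by 5622, introns included. These partners lie outside the rule for named genes. The log2 fold changes of Oraov1, Bysl and Ints8 were -0.07, -0.07 and -0.28, none past the test. Oraov1 had 217 to 496 reads per library, far fewer than Ccnd1 in Control. Ints8, in contrast, had 376 to 722 reads per library against 27 to 98 for Ccne2, and all its knockout libraries were below all Control libraries. The effect of the overlap on the count of Ccne2 was not tested. 9330179D12Rik had at most 11 reads in any library.

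Levels of different genes were compared per length, as RPKM, the reads per kilobase of merged exons scaled to the total of the library. Cyclin D1 transcripts were at 113, 106 and 58.1 RPKM in Control and 42.6, 12.5 and 24.3 in knockout kidneys. Cyclin D3 transcripts were at 58.4, 54.6 and 39.3 RPKM in Control and 52.8, 48.8 and 50.1 in knockout kidneys. Ccnd1 thus exceeded Ccnd3 in each Control library and was below it in each knockout library, with a Ccnd1 to Ccnd3 ratio per length of 1.93, 1.95 and 1.48 in Control and 0.807, 0.257 and 0.484 in knockout kidneys. Cyclin D2 transcripts were at 15.9, 13.7 and 22.0 RPKM in Control and 14.7, 9.21 and 14.6 in knockout kidneys. The sum of the D-type cyclins was 160 ± 36.0 RPKM in Control and 89.9 ± 19.8 in knockout kidneys (SD, n = 3 each). The libraries did not overlap, but Control replicate 3 (119) and TfR1 knockout replicate 1 (110) lay close. Only Ccnd1 of these genes was separate by itself, and 33.7% of all genes tested did not overlap in normalized counts. The sum was scaled by total counts only, and other scalings of it were not tested.

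Of this summed D-type signal, Ccnd1 made up 60.3%, 60.9% and 48.7% in Control and 38.7%, 17.8% and 27.3% in knockout kidneys. Ccnd3 made up 31.2%, 31.3% and 32.9% in Control and 48.0%, 69.2% and 56.3% in knockout kidneys. Both shares were separate between the groups, whereas those of Ccnd2 overlapped (7.84% to 18.5% and 13.1% to 16.4%). The mean share of Ccnd1 was 56.6% ± 6.89 in Control and 27.9% ± 10.5 in knockout kidneys, and that of Ccnd3 was 31.8% ± 0.94 and 57.8% ± 10.7 (SD, n = 3 each). Shares are a description without a test, and a share of Ccnd3 can rise with no change of Ccnd3 itself.

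**Figure D2:**
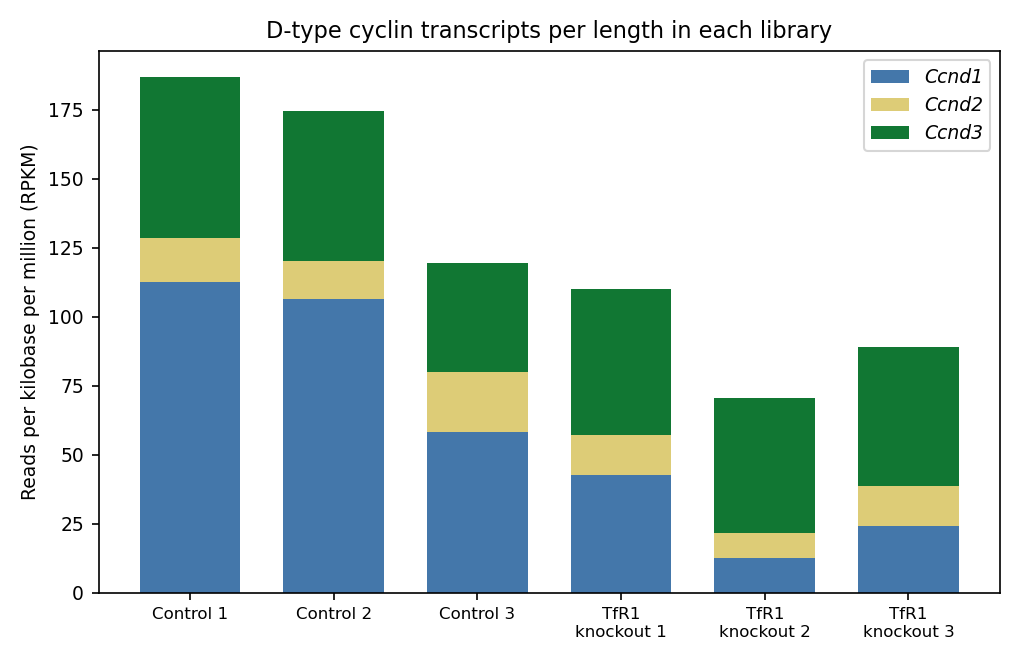
RPKM of Ccnd1, Ccnd2 and Ccnd3, stacked (vertical axis, from 0), in each of the 6 libraries. The stacks reach 119 to 187 RPKM in Control and 70.6 to 110.1 in TfR1 knockout libraries, and the Ccnd3 segment is 39.3 to 58.4 RPKM in all 6.

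The kinase partners of the D-type cyclins were looked at after their values were seen. Cdk4 had 3150, 3078 and 4102 normalized counts in Control and 3134, 1505 and 2334 in knockout kidneys, so that the groups overlapped (log2 fold change -0.57, SE 0.29, DESeq2 adjusted p 0.192). It passed in 1 of the 6 fits without 1 library, and its log2 fold changes ran from -0.84 to -0.33 over them. Cdk6 was at 1290 ± 86.0 and 1430 ± 78.7 normalized counts (log2 fold change 0.15, SE 0.15, DESeq2 adjusted p 0.545).

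The E-type cyclins did not pass the test. Ccne1 encodes cyclin E1 (chromosome 7, 38883003 to 38892553, minus strand). It had 138, 144 and 124 normalized counts in Control and 145, 28.1 and 51.1 in knockout kidneys. Control libraries were close to each other, whereas TfR1 knockout replicate 1 was the highest of all 6 libraries and the other two knockout libraries were the lowest. The log2 fold change was -0.85 (SE 0.55, 95% interval -1.92 to 0.22, DESeq2 adjusted p 0.318). Without TfR1 knockout replicate 1 it was -1.75 and past the test (DESeq2 adjusted p 0.000117, with a range of 0.000117 to 0.642 over its alternatives), so that this library decided the call.

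Ccne2 encodes cyclin E2 (chromosome 4, 11118498 to 11131926, plus strand). It had 80.8, 52.7 and 77.5 normalized counts in Control and 37.8, 34.5 and 49.2 in knockout kidneys. The groups were separate by a gap of only a few counts, between Control replicate 2 and TfR1 knockout replicate 3. The log2 fold change was -0.79 (SE 0.36, unadjusted p 0.0297, DESeq2 adjusted p 0.131). Per length, the sum of Ccne1 and Ccne2 was 3.96, 3.58 and 3.85 RPKM in Control and 3.39, 0.914 and 1.76 in knockout kidneys.

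The INK4 genes differed among themselves in the direction of their values. Cdkn2c encodes the inhibitor p18INK4c (chromosome 4, 109333481 to 109339794, minus strand). It had 519, 504 and 441 normalized counts in Control and 269, 178 and 213 in knockout kidneys. The groups were separate by a gap wider than the spread within each of them. Cdkn2c fell 2.22-fold, from 488 ± 41.5 to 220 ± 46.3 (SD, n = 3 each), with a log2 fold change of -1.15 (SE 0.23, 95% interval -1.59 to -0.70, DESeq2 adjusted p 1.81e-05). It also passed with edgeR (adjusted p 0.0236) and limma-voom (adjusted p 0.0200), and the adjusted p ranged from 5.84e-07 to 0.0236 over the 15 alternatives. It was the only member that passed under all of them.

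Cdkn2b encodes p15INK4b, which growth inhibitory signals such as TGF-beta induce (chromosome 4, 88952198 to 88956941, minus strand). It had 59.4, 34.5 and 61.4 normalized counts in Control and 90.5, 148 and 76.6 in knockout kidneys. All knockout libraries were above all Control libraries, with TfR1 knockout replicate 2 the highest. The group means were 51.8 ± 14.9 and 105 ± 38.1 (SD, n = 3 each), a ratio of 2.03 with a 95% interval of 1.17 to 3.51. The log2 fold change of 1.02 (SE 0.40, unadjusted p 0.0115) missed the threshold (DESeq2 adjusted p 0.0682, edgeR adjusted p 0.145, range 0.0681 to 0.331 over its alternatives). The Cdkn2b to Cdkn2c ratio per length was 0.220, 0.132 and 0.268 in Control and 0.647, 1.61 and 0.694 in knockout kidneys. Since each gene alone was separate between the groups, in opposite directions, this ratio could not overlap and adds no further evidence.

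Cdkn2a, which encodes p16INK4a and, in another reading frame, p19ARF, lies 11640 bases from Cdkn2b on the same chromosome and strand (88920377 to 88940557). Its raw counts were 4, 2 and 0 in Control and 4, 1 and 2 in knockout kidneys. These counts are at or near the floor of 3 counts per library in both groups, so no fold is given and a difference was not detectable at this depth. DESeq2 gave it no adjusted p, and the deposited count merges its transcripts.

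The sequence around annotated start sites is shown for Cdkn2c, which fell, and for Cdkn2b and E2f1, which did not pass the test. As this choice rests on the results, the letters do not test a link to the values. The E2f1 window lies at a start inside the gene, as described below. RefSeq promoter windows (GRCm38.p6, a later build than that of the gene positions above; 250 bases before the start to 50 after) were at hand for 7 of the 10 members, in 10 windows, and not for Ccnd1, Ccnd2 and Ccne2. The E2F site was searched as the octamers TTTCCCGC, TTTCGCGC, TTTGCCGC and TTTGGCGC, and more loosely as the heptamers left when the first T of each is dropped. Capitals mark the heptamers, the GC box (GGGCGG) and the CCAAT box, each searched on both strands. The upstream start of Cdkn2c is shown first, its downstream start second.
Cdkn2c, chr4:109666707-109667006, minus strand: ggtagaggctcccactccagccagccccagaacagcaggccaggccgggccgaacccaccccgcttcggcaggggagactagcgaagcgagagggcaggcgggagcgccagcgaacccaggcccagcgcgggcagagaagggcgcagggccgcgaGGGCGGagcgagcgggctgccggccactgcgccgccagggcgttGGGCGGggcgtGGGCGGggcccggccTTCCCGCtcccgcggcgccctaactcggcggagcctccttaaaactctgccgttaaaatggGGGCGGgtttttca
Cdkn2c, chr4:109665323-109665622, minus strand: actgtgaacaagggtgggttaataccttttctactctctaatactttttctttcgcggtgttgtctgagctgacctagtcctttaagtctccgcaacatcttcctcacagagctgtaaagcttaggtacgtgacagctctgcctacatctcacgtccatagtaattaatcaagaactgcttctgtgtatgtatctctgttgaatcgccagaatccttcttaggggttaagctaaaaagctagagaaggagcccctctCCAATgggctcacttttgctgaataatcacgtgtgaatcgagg
Cdkn2b, chr4:89310983-89311282, minus strand: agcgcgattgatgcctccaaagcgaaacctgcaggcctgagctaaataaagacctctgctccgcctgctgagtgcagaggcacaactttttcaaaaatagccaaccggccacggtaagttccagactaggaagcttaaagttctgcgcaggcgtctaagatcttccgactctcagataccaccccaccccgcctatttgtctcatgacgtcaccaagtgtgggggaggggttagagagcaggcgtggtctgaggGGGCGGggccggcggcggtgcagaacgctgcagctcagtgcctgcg
E2f1, chr2:154569377-154569676, minus strand: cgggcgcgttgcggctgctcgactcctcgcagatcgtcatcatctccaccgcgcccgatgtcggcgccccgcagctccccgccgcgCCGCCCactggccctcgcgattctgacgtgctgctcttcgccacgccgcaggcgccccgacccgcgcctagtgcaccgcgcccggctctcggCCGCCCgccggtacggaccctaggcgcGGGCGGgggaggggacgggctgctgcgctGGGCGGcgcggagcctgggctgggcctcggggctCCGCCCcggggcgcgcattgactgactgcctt

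The upstream Cdkn2c window held 1 E2F heptamer, TTCCCGC, starting 25 bases before the start site, and 4 GC boxes, at a GC content of 73.3%. Its downstream window held neither, but 1 CCAAT box, at a GC content of 44.0%. The Cdkn2b window held 1 GC box and the E2f1 window 5, and neither held a heptamer. The upstream part of the E2f1 window reads as protein-coding sequence of E2f1, so this window lies inside the gene. Sequence before the first exon of E2f1 was not searched, and the window does not describe E2F sites there. Over the 10 windows, 2 held a heptamer (that of Cdkn2c and the upstream one of Cdkn2a), against 9.57% of all 32851 windows. These 10 include the E2f1 window inside the gene, and some members have more than 1 window. The octamers, each of which contains a heptamer, were in 1 window, that of Cdkn2a, against 2.26%. A GC box was in 9 windows (35.7% of all), CCAAT in 4 (37.4%) and TATAAA in 0 (13.6%); a CCAAT box on the other strand can share letters with a GC box. A match is a description of letters, and no binding was measured.

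Cdkn1b encodes p27KIP1, a Cip/Kip inhibitor of cells that have left the cycle (chromosome 6, 134870419 to 134875531, plus strand). It had 1448, 1427 and 1495 normalized counts in Control and 1186, 2581 and 1709 in knockout kidneys. Controls were tightly grouped, and knockout libraries lay on both sides of them. The log2 fold change was 0.33 (SE 0.29, DESeq2 adjusted p 0.501), with a 95% interval of the ratio from 0.842 to 1.86. Without TfR1 knockout replicate 2 its sign turned, at -0.0044. Set against Ccnd1 per length, Cdkn1b stood at a ratio of 0.149, 0.153 and 0.316 in Control and 0.318, 2.02 and 0.819 in knockout kidneys, where Control replicate 3 and TfR1 knockout replicate 1 nearly met.

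E2f1 encodes a transcription factor that the retinoblastoma protein restrains and that activates genes of S phase (chromosome 2, 154385143 to 154395628, minus strand). It had 421, 434 and 354 normalized counts in Control and 340, 80.6 and 226 in knockout kidneys. The groups did not overlap, but TfR1 knockout replicate 1 was close to Control replicate 3, and TfR1 knockout replicate 2 was far below the rest. The log2 fold change was -0.90 (SE 0.45, 95% interval -1.78 to -0.02, unadjusted p 0.0458, DESeq2 adjusted p 0.173). Without TfR1 knockout replicate 1 it was -1.39 and past the test (DESeq2 adjusted p 0.0105, with a range of 0.0105 to 0.388 over its alternatives).

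**Figure D3:**
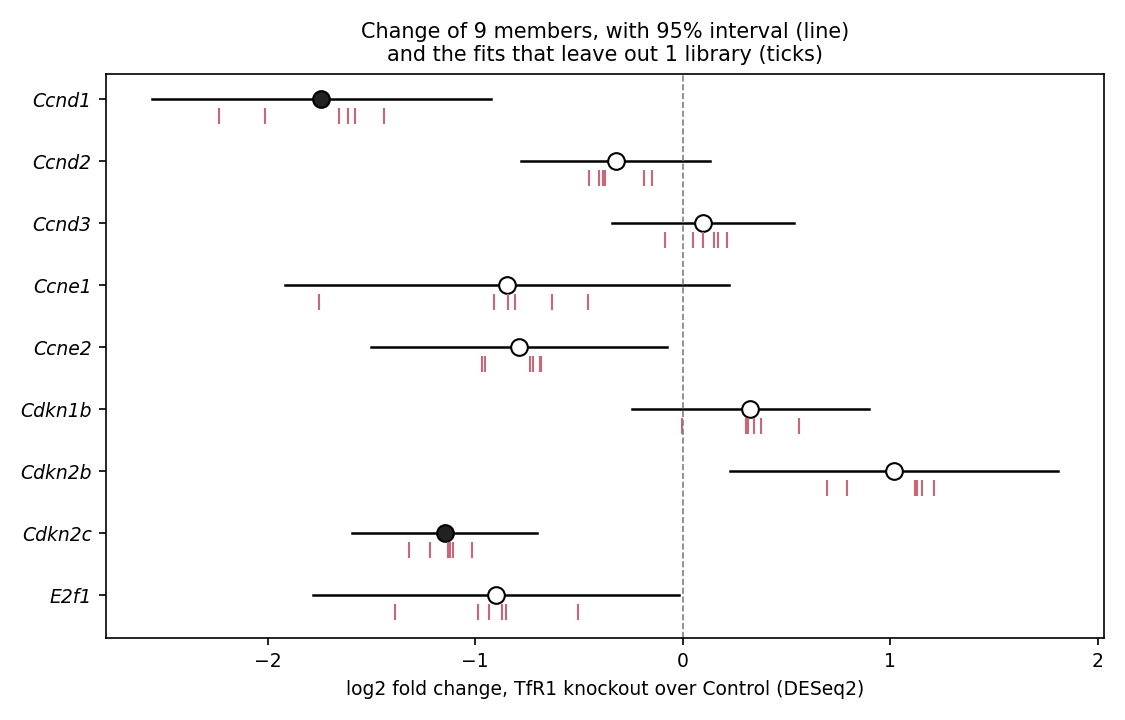
log2 fold change of TfR1 knockout over Control (horizontal axis, DESeq2) for the 9 members tested, with 95% intervals as lines; filled points passed an adjusted p of 0.05 and open points did not, and the ticks under each point are the 6 fits that leave out 1 library. Ccnd1 (-1.74) and Cdkn2c (-1.15) are filled with all ticks below 0, whereas Ccne1 and E2f1 each have 1 tick, without TfR1 knockout replicate 1, far to the left of the others.

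Over the 9 tested members, 5 did not overlap between the groups, 4 lower in knockout kidneys (Ccnd1, Ccne2, Cdkn2c and E2f1) and 1 higher (Cdkn2b). Among all genes tested, 33.7% did not overlap, 16.9% in each direction. TfR1 knockout replicate 2 was the lowest of the 6 libraries for 6 members and the highest for 2 (Cdkn1b and Cdkn2b). How often it was the lowest or highest over all genes was not counted. This library also had the fewest genes detected (17702, against 18146 to 18370 in the others) and the lowest size factor (0.78). TfR1 knockout replicate 1 was the knockout library with the highest Ccnd1, Ccnd2, Ccne1, Cdkn2c and E2f1 and the lowest Cdkn1b. Collecting duct marker sums were 32047 in TfR1 knockout replicate 1 and 61726 in replicate 2, and stroma sums were 46641 and 23389. The part of these differences in the spread of the members was not tested.

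Ordered by level per length, the Control kidneys had Ccnd1 (92.4 ± 29.9 RPKM) and Ccnd3 (50.8 ± 10.1) at the top, with overlapping ranges. Ccnd2 (17.2 ± 4.32) and Cdkn1b (17.2 ± 1.11) followed and did not differ beyond their spread. Next came Cdkn2c (9.73 ± 0.52), E2f1 (6.83 ± 0.47), Ccne1 (2.71 ± 0.10), Cdkn2b (2.00 ± 0.63), Ccne2 (1.08 ± 0.26) and Cdkn2a (0.0766 ± 0.0747), each separate in its range from its neighbours. In knockout kidneys Ccnd3 was first (50.6 ± 2.04) and separate from Ccnd1 (26.5 ± 15.2). Ccnd1, Cdkn1b (19.6 ± 5.91) and Ccnd2 (12.8 ± 3.13) overlapped in turn. Cdkn2c (4.12 ± 1.13) was below them, and its range overlapped that of Cdkn2b (3.68 ± 0.96), which in Control kidneys was several places lower. E2f1 (3.51 ± 2.24), Ccne1 (1.44 ± 1.24) and Ccne2 (0.583 ± 0.152) overlapped in turn, and Cdkn2a was last (0.104 ± 0.0657; SD, n = 3 for all).

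Around the members, 60 further genes of the G1 pathway were followed in 8 lists, and 59 were tested. At an adjusted p under 0.05 (DESeq2), 6 were higher and 16 lower in knockout kidneys, against 7.74% and 7.18% of all genes tested. Their median log2 fold change was -0.12. edgeR called 5 higher and 4 lower, against 3.22% and 2.8% of all genes. limma-voom likewise called 5 and 4, against 3.17% and 2.98%. The same shares apply to the counts of each list below. At an unadjusted p under 0.05, the shares of all genes higher and lower were 13.8% and 13.5% with DESeq2. With edgeR they were 12.8% and 13%. DESeq2 called unchanged genes above its threshold rate in simulated data, so genes called by it alone rest on weaker evidence. The count of lower genes was 5 to 9 when any 1 library other than TfR1 knockout replicate 1 was left out, and 23 without that replicate. Of the genes named below, Cdkn1a, Cdkn1c, Ccna2, Jun, Ccng1 and Zmat3 passed in each of the 6 fits without 1 library, Mdm2 in 5, E2f7 in 4, E2f8, Skp2, Mcm5, Foxo3 and Ezh2 in 2, and E2f2 and Mcm3 in 1.

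Of 3 other inhibitors of cyclin-dependent kinases, 1 was higher, 1 was lower and 1 did not pass the test. Cdkn1a, which encodes p21CIP1 and is a target of p53, had 890, 771 and 675 normalized counts in Control and 5857, 10064 and 5925 in knockout kidneys (log2 fold change 3.23, SE 0.27, DESeq2 adjusted p 6.61e-30). Cdkn1c, which encodes p57KIP2, an inhibitor of differentiating cells, had 7113, 6567 and 11233 in Control and 1540, 901 and 1360 in knockout kidneys (log2 fold change -2.71, SE 0.30, DESeq2 adjusted p 1.63e-17). Both also passed with edgeR. Within the Cip/Kip family, Cdkn1a thus rose, Cdkn1c fell and Cdkn1b did not pass the test. Cdkn2d, the remaining INK4 gene, was at 33.7 ± 6.59 and 35.3 ± 13.4 normalized counts (log2 fold change 0.06, SE 0.47, DESeq2 adjusted p 0.953).

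Of the cyclin-dependent kinases and their activators, 0 of 7 passed in either direction with DESeq2, edgeR or limma-voom, and 0 had an unadjusted p under 0.05 with DESeq2 or edgeR. Cdk2, the partner of the E-type cyclins, is one of them and had a log2 fold change of 0.26 (SE 0.22, DESeq2 adjusted p 0.468). Of 12 pocket protein and E2F family genes 3 were lower and 0 higher: E2f8 (-1.14 on the log2 scale, SE 0.41), E2f7 (-1.05, SE 0.30) and E2f2 (-0.78, SE 0.27), with DESeq2 adjusted p of 0.0385, 0.00552 and 0.0289. E2f2 encodes an activator, and E2f7 and E2f8 encode repressors that act without the retinoblastoma protein. With edgeR 0 of the 12 passed, and 4 were lower and 1 higher at an unadjusted p under 0.05. Skp2, which marks p27KIP1 for degradation, was the 1 of 5 turnover genes that was lower (log2 fold change -0.91, SE 0.32, DESeq2 adjusted p 0.0378), and it did not pass with edgeR.

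Of 16 S-phase genes known as E2F targets, 10 were lower and 0 higher with DESeq2, against 7.18% and 7.74% of all genes tested. The values of all 16 were below 0 and their median log2 fold change was -0.72. Mcm5 and Mcm3, subunits of the replicative helicase, had log2 fold changes of -1.30 (SE 0.45) and -1.15 (SE 0.42), and Ccna2, the cyclin of S phase, one of -1.17 (SE 0.28, DESeq2 adjusted p 0.000514). edgeR called 3 of the 16 as lower, Ccna2 among them. As for E2f1 and Ccne1, TfR1 knockout replicate 1 was the highest and replicate 2 the lowest knockout library for Mcm5 (731 and 177 normalized counts), Mcm3 (713 and 188) and Ccna2 (526 and 261).

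Among 7 regulators of Cdkn2a and Cdkn1b transcription, 1 was higher and 1 lower. Foxo3, a factor that activates Cdkn1b, rose (log2 fold change 0.97, SE 0.35, DESeq2 adjusted p 0.0386). Ezh2, the Polycomb methyltransferase that represses the Cdkn2a locus, fell (log2 fold change -0.48, SE 0.15, DESeq2 adjusted p 0.0120). With edgeR 0 of the 7 passed, and 1 was higher and 1 lower at an unadjusted p under 0.05.

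Of 4 mitogen-induced transcription factors 3 were tested and 1, Jun, was higher. Jun can activate Ccnd1 and had 909, 772 and 534 normalized counts in Control and 5431, 2490 and 1570 in knockout kidneys (log2 fold change 2.10, SE 0.43, DESeq2 adjusted p 4.04e-05), and it passed with edgeR. Fosl1 had 0 counts in each Control library and 3, 2 and 3 in knockout libraries, none above the floor of 3 counts, so no fold is given. Of 6 genes of the p53 arm 3 were higher, Ccng1 (1.97, SE 0.28), Zmat3 (1.41, SE 0.19) and Mdm2 (0.75, SE 0.20) on the log2 scale, and all 3 also passed with edgeR.

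**Figure D4:**
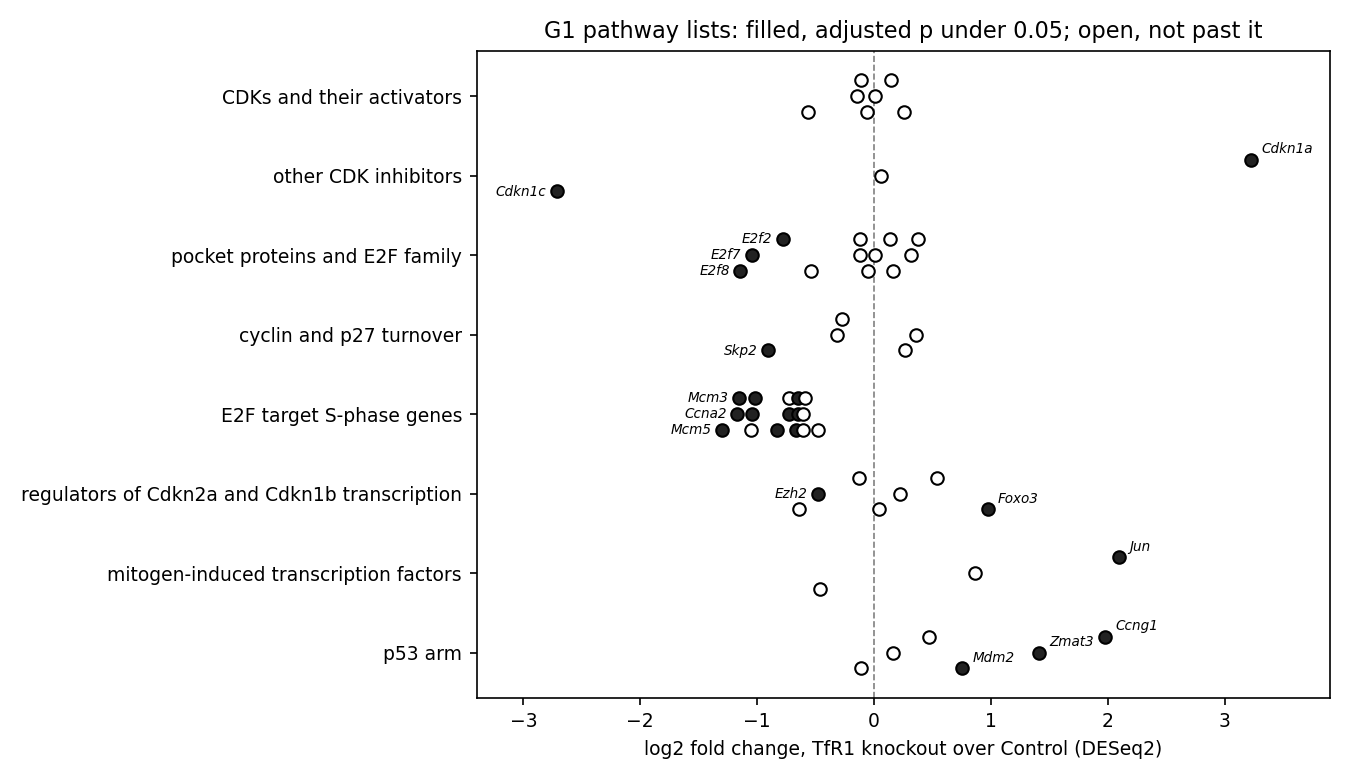
log2 fold change of TfR1 knockout over Control (horizontal axis, DESeq2) for the 59 tested genes of 8 G1 pathway lists, 1 point a gene, filled where the adjusted p was under 0.05; points of a list are spread vertically only for legibility. The kinases and their activators are all open, with Cdk4 (-0.57) the farthest of them from 0. The S-phase genes all lie below 0 with 10 filled, and Cdkn1a (3.23) and Cdkn1c (-2.71) are the farthest points of all lists.

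Mki67, which marks cycling cells, fell from 3389 ± 619 to 1204 ± 447 normalized counts (SD, n = 3 each), with a log2 fold change of -1.49 (SE 0.30, DESeq2 adjusted p 2.95e-05), and passed with edgeR. Tfrc, the targeted gene, had 5534, 6485 and 3667 normalized counts in Control and 6976, 4045 and 5898 in knockout kidneys (log2 fold change 0.11, SE 0.29, DESeq2 adjusted p 0.853). The gene count also takes reads outside the deleted exons and from cells outside the Six2 lineage, so it does not check the labels.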

How the data were processed

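Poly-A RNA of 6 kidneys was read in single-end libraries. Per the labels and the study's methods, the authors trimmed reads with Trimmomatic after CASAVA 1.8.2, aligned them to mm9 with TopHat2 2.0.11, kept unique alignments and deposited raw counts per gene from HTSeq. The strand setting of the counting is not given in the sources used here. Unique counting lowers genes with near-identical copies. The study describes separate mice; p-values measure the spread between these kidneys, of which 3 per group limit the precision.

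Groups came from the labels. Following the study, DESeq2 1.42.0 (R 4.3.3) was fitted to all 24422 genes with median-ratio size factors, and calls were made at an adjusted p under 0.05. Normalized counts are counts divided by size factors. RPKM values were computed here from the counts with GENCODE exon lengths of NCBIM37 (mm9), for all members by symbol. Intervals are 95% Wald intervals, and the floor of 3 counts covers counting error only. Alternatives were edgeR 4.0.16 (quasi-likelihood), limma 3.58.1 with voom, other size factors and filters, a replicate block and leaving out each library. The code was tested on simulated data, in which the share of unchanged genes among the calls was well above the threshold for DESeq2 and smaller for edgeR and limma-voom. DESeq2 was kept because the study names it, and its calls are given with those of the other tools. All members were described. Of each pathway list the genes past the test were named, up to the 3 with the largest changes, with those under 10 mean normalized counts named as low, and Cdkn1a, Mki67 and Tfrc were preset. The members and lists were chosen with earlier results of these data known. Promoter sequences are from RefSeq.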

Additional observations from a re-analysis of the deposited data

How the results depend on the processing

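Over 9 members and 15 alternatives each, 127 values kept their direction and their side of the threshold, 2 lost the call, 3 gained one and 3 turned sign. The lost calls were those of Ccnd1 with edgeR and limma-voom, which left 1 lower member, also with the 2-fold limit, and called 4 lower pathway genes. Leaving out 1 library gave 2 to 4 lower members (4 without TfR1 knockout replicate 1, also with the 2-fold limit) and 5 to 23 lower pathway genes. The signs that turned were those of Ccnd3 with total-count factors (-0.00505) and without Control replicate 3, and of Cdkn1b without TfR1 knockout replicate 2. Over the fits without 1 library, log2 fold changes ran from -0.0840 to 0.21 for Ccnd3, from -0.0044 to 0.56 for Cdkn1b and from -0.0949 to 0.30 for Tfrc, which also turned without TfR1 knockout replicate 1 (-0.0719). Total-count scaling lowered the median of all genes by 0.10 on the log2 scale (a shift of -0.10). With no length correction, the share of D-type cyclin signal was 18.5% for Ccnd2 and 20.2% for Ccnd3 in Control and 25.5% and 41.3% in knockout kidneys. With the longest transcript as length, the Control share of Ccnd3 was 32.8%. The causes of the changes between tools and libraries were not tested.

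Same-numbered samples did not deviate together (correlations -0.0378, 0.0548 and 0.0899), so the numbers are not taken to pair the kidneys. With the replicate number as a block, 3 members were lower, since E2f1 also passed (log2 fold change -1.09, DESeq2 adjusted p 0.0309), and pathway genes numbered 6 higher and 17 lower. Depth limits Cdkn2a and Fosl1, which were at or near 3 counts per library.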
